A study of Mus musculus with 6 samples.

Results

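The cytoskeletal gene set described here comprised 47 genes for tubulins, microtubule-associated proteins (MAPs), neuronal intermediate filaments, stathmins, doublecortins, SoxC transcription factors, growth cone membrane proteins and kinesin heavy chains. They were taken by gene symbol from a deposited table of 47086 loci in mouse hippocampal cultures, either wild type (WT) or *Fmr1* knockout (KO). Where a symbol had more than 1 locus, which was so for 4 of the 47, the locus with the highest mean FPKM was used. FPKM counts the sequenced fragments of a gene relative to the length of its transcript and to the size of the library, so levels of different genes can be set side by side. The members were chosen without their values, but with earlier results of these data known.

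Primary hippocampal cultures were made from newborn WT and *Fmr1* KO pups, labelled C57BL/6 for both genotypes, and harvested untreated after 14 days in vitro. There were 3 WT and 3 *Fmr1* KO libraries of total RNA. *Fmr1* encodes FMRP, an RNA-binding protein whose loss causes fragile X syndrome. The KO was carried by the whole animal, and each culture held neurons together with glia and dividing cells. For its mice in general the study names male KO animals and WT littermates, but neither the sex of the pups used for these cultures nor the litter behind each library is stated, so p-values measure the spread between these libraries, which may be technical. The absolute depth is unknown, because FPKM keep no read counts.

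Microtubules are hollow polymers of alpha and beta tubulin, nucleated on gamma tubulin, and each class is encoded by several isotype genes. MAPs bind along the lattice or at its growing ends, stathmins sequester free tubulin, and neurofilaments fill the axon as it matures and widens. Young neurons that are still extending neurites are known for doublecortin, SoxC factors and growth cone proteins, whereas the heavy and medium neurofilament chains, MAP2 and tau mark later stages.

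The targeted gene, *Fmr1*, measured 18.99, 19.5 and 19.7 FPKM in WT, against 23.1, 21.8 and 18.5 FPKM in *Fmr1* KO. Its transcript was not lower in the KO libraries, with a log2 change of 0.12 (standard error 0.08, limma adjusted p = 0.536). A value for the whole gene cannot show whether its transcript was intact, so the labels, on which each direction below rests, were not checked by it. Neuronal markers were present in each library, with *Rbfox3*, a nuclear marker of neurons, between 46.9 and 56.2 FPKM and *Snap25*, a synaptic vesicle fusion protein, between 224 and 277 FPKM.

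The set was abundant. Its summed FPKM ranged from 6800 to 7182 in the WT libraries and from 7235 to 7532 in the *Fmr1* KO libraries. *Tuba1a*, the main alpha tubulin of growing neurons, was the highest member at a mean of 1297 FPKM over the 6 libraries. *Tubb2a*, *Kif5c* and *Tubb2b* followed at 449, 426 and 406 FPKM, and the libraries of these 3 genes overlapped with each other. *Tuba1c*, a further alpha tubulin, was the lowest at 0.829 FPKM, and was the only member that did not reach a mean of 1 FPKM in either genotype and so was not tested.

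**Figure D1:**
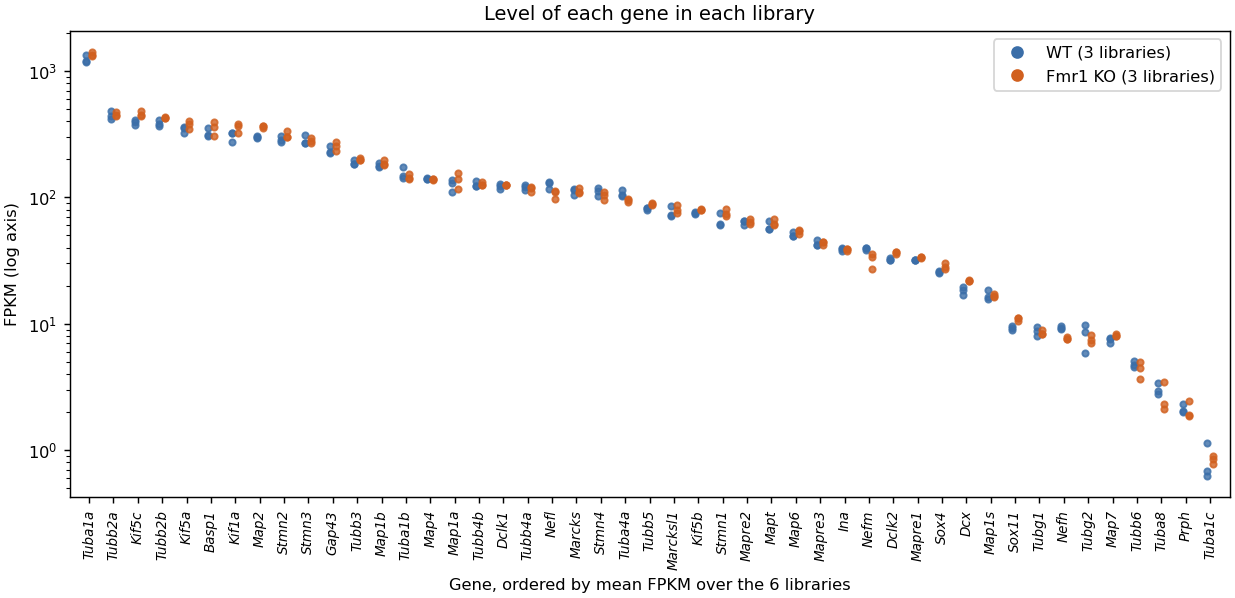
FPKM of each of the 47 genes in each of the 6 libraries, on a log axis, with genes in order of their mean FPKM. Blue points are the 3 WT libraries and orange points the 3 *Fmr1* KO libraries, and for most genes the spread between genotypes is small beside the range from 0.829 to 1297 FPKM between genes.

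The genotypes were compared as log2(FPKM + 0.1) with limma, over the 13195 loci that averaged 1 FPKM or more in WT or in *Fmr1* KO, with two-sided tests and Benjamini-Hochberg adjustment over all of them. No member passed an adjusted p below 0.05, a threshold that 0.265% of the tested loci passed. The smallest adjusted p among members was 0.0593, for *Map2*. At an unadjusted p below 0.05, 10 of the 46 tested members were higher in *Fmr1* KO (21.7%, beside 6.99% of all tested loci) and 4 were lower (8.70%, beside 7.77%). These counts moved with the libraries and with the fit. They were 6 higher and 6 lower without WT replicate 3, and 14 higher and 4 lower without WT replicate 1. When limma was run without its mean-variance trend, they were 6 higher and 4 lower. In the same order, 13.4, 14.3 and 14.0% of all tested loci had such a p in either direction, beside 14.8% in the main fit. The 3 libraries of one genotype lay entirely above or below those of the other in 15 members. In 11 of them the KO libraries were higher (23.9%, beside 10.8% of all tested loci), and in 4 they were lower (8.70%, beside 10.3%). The median log2 change of the tested members was 0.07, beside 0.005 over all tested loci, and 31 of the 46 were above 0 (67.4%, beside 51.7%). Every change in the set was small, from -0.30 for *Nefm* to 0.26 for *Dcx*.

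**Figure D2:**
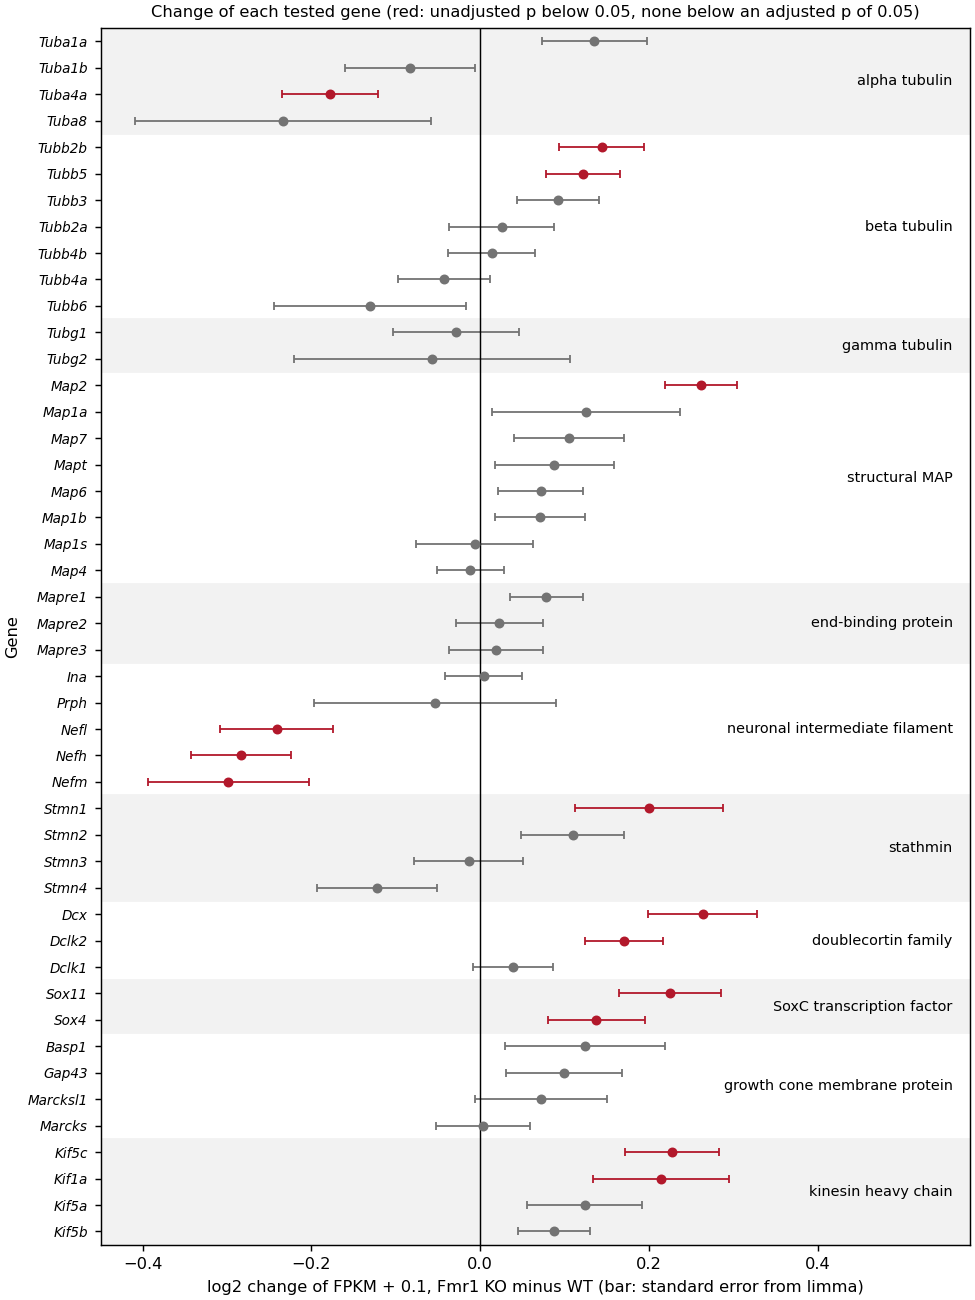
Change of each of the 46 tested genes, as log2(FPKM + 0.1) in *Fmr1* KO minus WT, with bars for the standard error from limma and genes grouped by role. The 14 genes in red had an unadjusted p below 0.05, and those to the left of 0 are *Tuba4a* and the 3 neurofilament chains *Nefl*, *Nefm* and *Nefh*.

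The 5 genes of immature neurons were all higher on average in *Fmr1* KO, by 0.09 to 0.26 on the log2 scale, beside 51.7% of all tested loci. In 2 of the 5 the KO libraries lay entirely above WT, beside 10.8% of all tested loci. *Dcx*, the microtubule-binding protein doublecortin of migrating and newly differentiating neurons, had an FPKM of 16.8, 19.7 and 18.4 in WT and of 21.8, 22.1 and 22.0 in *Fmr1* KO. The KO libraries of *Dcx* were close together and all above WT, with a log2 change of 0.26 (standard error 0.06, limma unadjusted p = 0.00297, adjusted p = 0.134). *Sox11*, a SoxC transcription factor that turns on genes of neuronal differentiation, had an FPKM of 9.65, 8.91 and 9.32 in WT and of 11.1, 10.5 and 11.04 in *Fmr1* KO. Its genotypes did not overlap either, with a log2 change of 0.23 (standard error 0.06, limma unadjusted p = 0.00502, adjusted p = 0.161). *Tubb3*, the beta tubulin class used as a neuron marker, had an FPKM of 199, 185 and 182 in WT and of 206, 199 and 198 in *Fmr1* KO. WT replicate 1 lay above *Fmr1* KO replicate 3, and the log2 change of 0.09 (standard error 0.05, limma adjusted p = 0.425) did not exceed the spread between replicates.

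*Stmn2*, a stathmin of growth cones and regenerating axons, had an FPKM of 305, 286 and 274 in WT and of 334, 299 and 301 in *Fmr1* KO. *Gap43*, a growth cone membrane protein, had an FPKM of 253, 225 and 231 in WT and of 273, 234 and 254 in *Fmr1* KO. In both genes replicate 1 was the highest library of its genotype and the genotypes overlapped. Their log2 changes were 0.11 (standard error 0.06, limma adjusted p = 0.449) and 0.10 (standard error 0.07, limma adjusted p = 0.548). Without *Fmr1* KO replicate 1 they were 0.06 and 0.04, and over all libraries left out in turn that of *Gap43* ran from 0.04 to 0.16.

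The 4 genes of mature neurons differed in direction. *Map2*, the MAP of dendrites, had an FPKM of 297, 299.9 and 309 in WT and of 365, 354 and 368 in *Fmr1* KO. Its KO libraries were all above WT by more than the spread within either genotype, with a mean 1.20 times that of WT and a log2 change of 0.26 (standard error 0.04, limma unadjusted p = 0.000199). This was the member nearest to a call, at rank 42 of the 13195 loci. Its adjusted p was 0.0593 and ranged from 0.0293 to 0.233 over the alternatives, with 0.0439 when loci under 5 FPKM were left out and 0.0293 when the trend of each library with transcript length was removed. *Mapt*, which encodes the axonal MAP tau, had an FPKM of 64.7, 56.6 and 56.1 in WT and of 67.4, 61.1 and 59.9 in *Fmr1* KO, with overlapping genotypes and a log2 change of 0.09 (standard error 0.07, limma adjusted p = 0.611) that ran from 0.04 to 0.15 with a library left out.

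The neurofilament chains lay on the other side. *Nefh*, the heavy chain that is added late to mature axons, had an FPKM of 9.13, 9.64 and 9.27 in WT and of 7.58, 7.58 and 7.82 in *Fmr1* KO. The genotypes of *Nefh* did not overlap, the KO mean was 0.822 of the WT mean, and the log2 change was -0.28 (standard error 0.06, limma unadjusted p = 0.00111, adjusted p = 0.0925). With the trend with transcript length removed, the adjusted p of *Nefh* was 0.0380, and over all alternatives it ranged from 0.0380 to 0.319. *Nefm*, the medium chain, had an FPKM of 39.7, 39.9 and 38.5 in WT and of 33.7, 27.0 and 35.9 in *Fmr1* KO. All its KO libraries were below WT, but they were far apart, and *Fmr1* KO replicate 2 was the lowest. The log2 change of *Nefm* was -0.30 (standard error 0.10, limma adjusted p = 0.220), and it was -0.18 without *Fmr1* KO replicate 2.

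**Figure D3:**
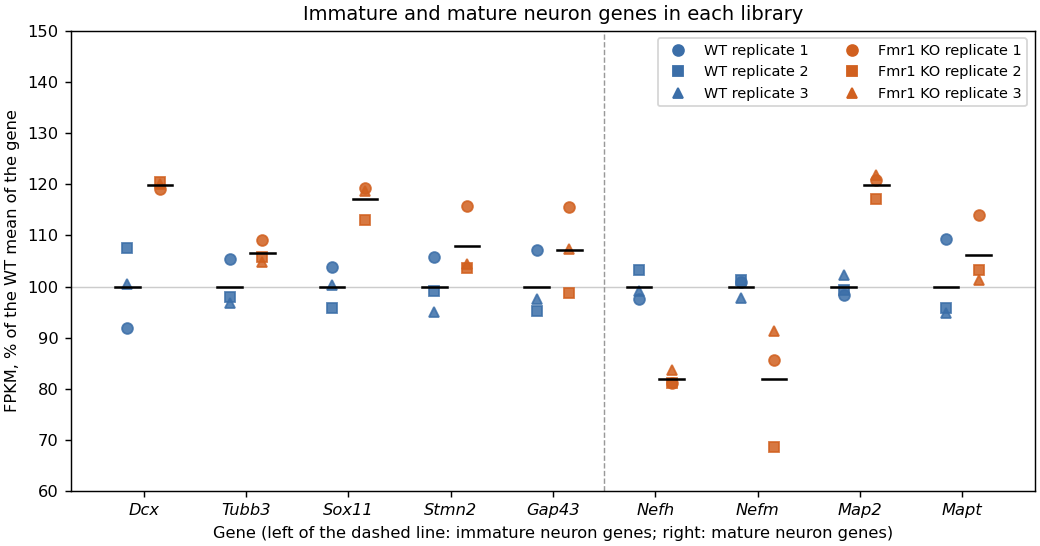
FPKM of the 5 immature and 4 mature neuron genes in each library, as a percentage of the WT mean of the gene. Symbols mark the replicate number, colours the genotype and black bars the genotype means, and *Map2* stands above the WT mean with *Dcx* and *Sox11* while *Nefh* and *Nefm* stand below it.

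Because of this split, a comparison of immature with mature genes depended on which mature genes were used. The mean log2 FPKM of the 5 immature genes minus that of the 4 mature genes averaged 0.54 (SD 0.02, n = 3) over the WT libraries and 0.76 (SD 0.04, n = 3) over the KO libraries, a difference of 0.22. Against *Nefh* and *Nefm* alone the difference between genotypes was 0.45. Against *Map2* and *Mapt* alone it was -0.02. No test was made on these scores, since their members were chosen with results known.

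Ratios within a library show the same split without any scaling between libraries. The ratio of *Map2* to *Nefh* was between 31.1 and 33.3 in the WT libraries and between 46.7 and 48.1 in the *Fmr1* KO libraries. The ratio of *Dcx* to *Nefh* was 1.84, 2.04 and 1.98 in WT, against 2.88, 2.91 and 2.81 in *Fmr1* KO. Both ratios were thus higher in all KO libraries than in any WT library. This had to follow, since all KO libraries lay above WT in *Map2* and *Dcx* and below it in *Nefh*. The ratio of *Dcx* to *Map2*, by contrast, was 0.0606 on average in both genotypes (SD 0.00465 in WT and 0.00148 in *Fmr1* KO, n = 3). In RNA from a mixed culture, fewer cells of a type and less RNA per cell cannot be told apart.

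Beyond *Nefh* and *Nefm*, the intermediate filament genes differed among themselves. *Nefl*, the light chain on which neurofilaments assemble, had an FPKM of 132, 129 and 117 in WT and of 109, 98.0 and 113 in *Fmr1* KO. The KO libraries of *Nefl* were all lower, with a log2 change of -0.24 (standard error 0.07, limma unadjusted p = 0.00620, adjusted p = 0.170). *Ina*, which encodes alpha-internexin, a filament protein that appears early in development and assembles with the neurofilament chains, had means of 38.7 and 38.8 FPKM and a log2 change of 0.0041. *Prph*, the peripherin gene of peripheral neurons, was near the FPKM minimum at a mean of 2.09 FPKM, with a log2 change of -0.05. The share of *Ina* in the summed FPKM of *Nefl*, *Nefm*, *Nefh* and *Ina* was 17.7, 18.1 and 18.6% in WT. It was 20.7, 22.2 and 20.1% in *Fmr1* KO, without overlap. This share is not a separate result, since *Ina* differed little and all KO libraries of the other chains in the sum lay below WT.

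The table gives an interval that overlapping loci share. For *Nefh* (chr11:4934377-5042794, GRCm38) it also holds *Ap1b1*, a clathrin adaptor subunit. *Ap1b1* has its own FPKM, which was higher than that of *Nefh* at 33.4 to 35.7 over the libraries, and a log2 change of -0.0064. For *Tuba4a* the interval also holds *Stk16*, at 23.5 to 27.7 FPKM with a log2 change of 0.02. In 18 members the interval also held another locus, most of them predicted genes at low FPKM. Whether the authors counted reads by strand is not given in the sources used here, so reads from overlapping genes on opposite strands cannot be told apart.

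Among the tubulins, the isotypes took very unequal shares. Several isotype genes are known to be close copies of each other, which matters for how reads can be assigned. *Tubb2a* and *Tubb2b* differed at 47 of 1338 coding bases in the GENCODE vM21 annotation and shared a stretch of 551 identical bases. The last 60 coding bases of 4 isotypes, stop codon included, are shown 5′ to 3′ because they encode the acidic tail in which tubulin isotypes are known to differ most. Capitals mark the bases that differ between *Tubb2a* and *Tubb2b*, and *Tuba4a* and *Tubb3* are shown for contrast, without capitals.
Tuba4a: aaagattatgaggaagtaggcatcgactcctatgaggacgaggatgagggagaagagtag
Tubb2a: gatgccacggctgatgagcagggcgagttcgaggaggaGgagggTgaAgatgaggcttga
Tubb2b: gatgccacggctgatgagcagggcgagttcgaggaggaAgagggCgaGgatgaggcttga
Tubb3: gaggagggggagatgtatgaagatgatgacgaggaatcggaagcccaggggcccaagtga
The tails of *Tubb2a* and *Tubb2b* differed at 3 bases. How reads that match more than 1 isotype gene were shared between them is not given in the sources used here, so the split between close copies, also within the *Tuba1* genes, is uncertain.

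*Tuba1a* had an FPKM of 1337, 1181 and 1192 in WT and of 1405, 1342 and 1323 in *Fmr1* KO. WT replicate 1 lay above *Fmr1* KO replicate 3, and the log2 change was 0.14 (standard error 0.06, limma adjusted p = 0.357). *Tuba4a*, the alpha tubulin that lacks the encoded C-terminal tyrosine, had an FPKM of 115, 105 and 102 in WT and of 97.2, 95.9 and 91.4 in *Fmr1* KO. Its KO libraries were all below WT, with a log2 change of -0.18 (standard error 0.06, limma unadjusted p = 0.0124, adjusted p = 0.217). *Tuba1b* and *Tuba8* had log2 changes of -0.08 and -0.23 with overlapping libraries, and *Tuba1c* had an FPKM of 1.15, 0.620 and 0.686 in WT and of 0.851, 0.899 and 0.773 in *Fmr1* KO.

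Within the summed alpha tubulin FPKM, the share of *Tuba1a* was 82.1, 82.5 and 82.5% in WT, against 84.6, 84.9 and 84.9% in *Fmr1* KO. The share of *Tuba4a* was 7.08, 7.33 and 7.05% in WT, against 5.85, 6.07 and 5.86% in *Fmr1* KO. *Tuba1b* held 10.2% on average in WT and 9.07% in *Fmr1* KO. The shares of these 3 isotypes did not overlap between genotypes, and in a sum dominated by *Tuba1a* they are not independent of each other.

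In the beta tubulin class 5 of 7 isotypes were above 0, with log2 changes from -0.13 for *Tubb6*, an isotype of non-neuronal cells, to 0.14 for *Tubb2b*. *Tubb2b*, an isotype of migrating neurons, had an FPKM of 409, 368 and 382 in WT and of 425, 431 and 424 in *Fmr1* KO. Its KO libraries lay above WT and were the less variable, with a log2 change of 0.14 (standard error 0.05, limma unadjusted p = 0.0199, adjusted p = 0.251). *Tubb5*, a widely expressed isotype with an early role in the brain, had an FPKM of 83.1, 83.0 and 79.0 in WT and of 90.5, 88.4 and 87.8 in *Fmr1* KO. That difference was also without overlap, with a log2 change of 0.12 (standard error 0.04, limma unadjusted p = 0.0221, adjusted p = 0.259). *Tubb2a*, the highest of the class, had a log2 change of 0.03, and the brain isotype *Tubb4a* one of -0.04.

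In the summed beta tubulin FPKM, *Tubb2a* held 32.9% in WT and 31.9% in *Fmr1* KO, with overlapping libraries. *Tubb2b* held 28.5 and 30.1%, also with overlap. *Tubb4a* held 8.93% in WT and 8.27% in *Fmr1* KO, *Tubb4b* 9.38 and 9.03%, and *Tubb3* 13.9 and 14.2%, all without overlap and by less than 1 percentage point. The gamma tubulin genes *Tubg1* and *Tubg2*, which nucleate microtubules, had means of 8.63 and 7.81 FPKM and log2 changes of -0.03 and -0.06.

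**Figure D4:**
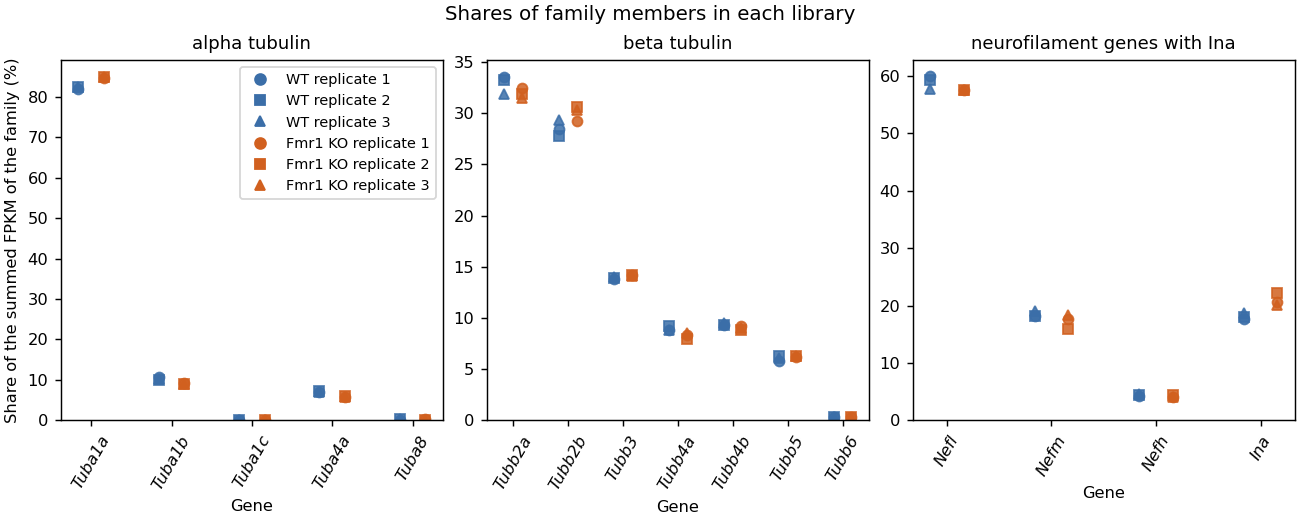
Share of each gene in the summed FPKM of its family in each library, in percent, for alpha tubulins, beta tubulins and neurofilament genes with *Ina*. The *Tuba1a* share is 82.1 to 82.5% in WT and 84.6 to 84.9% in *Fmr1* KO, and the *Ina* share is 17.7 to 18.6% in WT and 20.1 to 22.2% in *Fmr1* KO.

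Of the 8 structural MAPs, 6 were above 0 and *Map2* alone had an unadjusted p below 0.05. *Map1b*, a MAP of growing axons whose mRNA is a well-known FMRP target, had an FPKM of 173, 187 and 177 in WT and of 185, 180.1 and 199 in *Fmr1* KO. The genotypes overlapped, and the log2 change was 0.07 (standard error 0.05, limma adjusted p = 0.586). It was 0.03 without *Fmr1* KO replicate 3 and 0.0026 with the trend with transcript length removed. *Map7*, which recruits kinesin to microtubules, had an FPKM of 7.77, 7.63 and 7.07 in WT and of 7.93, 8.01 and 8.23 in *Fmr1* KO, all higher than WT but with a log2 change of 0.11 (standard error 0.07, limma adjusted p = 0.493), or 0.07 without WT replicate 3. *Map1a*, the MAP1 form of adult neurons, had the largest standard error of the group, with a log2 change of 0.13 (standard error 0.11). *Map4* and *Map1s* were at -0.01 and -0.0064.

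The end-binding genes, whose proteins track growing microtubule ends, differed little. *Mapre1*, which encodes EB1, had an FPKM of 31.9, 31.8 and 31.8 in WT and of 33.4, 33.7 and 33.8 in *Fmr1* KO. The libraries of *Mapre1* were so close within each genotype that they did not overlap at a mean ratio of 1.06, but limma, which takes part of its variance from loci of similar level, gave an adjusted p of 0.446. *Mapre2* and *Mapre3* had log2 changes of 0.02 each.

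The stathmins were split. *Stmn1*, the stathmin of progenitors and young neurons, had an FPKM of 75.4, 60.04 and 61.9 in WT and of 80.4, 73.6 and 71.8 in *Fmr1* KO. WT replicate 1 lay above 2 of the KO libraries, and the log2 change was 0.20 (standard error 0.09, limma unadjusted p = 0.0486, adjusted p = 0.336), or 0.30 without WT replicate 1. *Stmn3* and *Stmn4*, neuronal members of the family, had log2 changes of -0.01 and -0.12. In the summed stathmin FPKM the share of *Stmn2* was 37.7 to 39.1% in WT and 40.0 to 40.8% in *Fmr1* KO, and that of *Stmn4* was 14.5 to 15.5% in WT and 12.9 to 13.8% in *Fmr1* KO.

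Besides *Dcx*, the doublecortin family had *Dclk2* as a second gene with separate libraries. *Dclk2*, a doublecortin-like kinase, had an FPKM of 32.1, 33.2 and 32.0 in WT and of 35.7, 37.2 and 36.7 in *Fmr1* KO. Its log2 change was 0.17 (standard error 0.05, limma unadjusted p = 0.00534, adjusted p = 0.162). *Dclk1*, the most abundant of the family at a mean of 124 FPKM, had a log2 change of 0.04. *Sox4*, the SoxC partner of *Sox11*, had an FPKM of 26.3, 25.1 and 25.9 in WT and of 28.0, 26.9 and 30.3 in *Fmr1* KO, with no overlap and a log2 change of 0.14 (standard error 0.06, limma unadjusted p = 0.0399, adjusted p = 0.313), or 0.09 without *Fmr1* KO replicate 3.

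SoxC factors are known to bind the SOX core motif in regulatory regions of neuronal genes, so the promoters of the members were searched for it. Of the 47 genes, 31 had an entry in the RefSeq promoter table (GRCm38.p6), and the 250 bases before each start were searched on both strands for the SOX core, ACAAAG, and for its variant with a later T, ACAATG. The core ACAAAG was found in 16.5% of all 32851 promoters of that length and in 4 of 36 promoters of the members, those of *Dclk2*, *Dcx*, *Stmn3* and *Tubb5*. The variant ACAATG was found in 10.7% of all promoters and in 3 of the 36, those of *Dclk1*, *Tuba8* and *Tubb3*. For both SOX motifs the share among the members was below that of all promoters. A further motif searched in the same way, the E-box CAGCTG, was found in 13.0% of all promoters and in 7 of the 36. The 3 promoters printed are those of the doublecortin genes with non-overlapping libraries and of *Tubb3*, with each match in capitals as it reads on the strand of the gene and a match on the other strand therefore seen as the reverse complement. They lie at chrX:143933125-143933374 on the minus strand for 1 of the 2 annotated starts of *Dcx*, at chr3:86920885-86921134 on the minus strand for *Dclk2*, and at chr8:123411303-123411552 on the plus strand for *Tubb3*.
Dcx: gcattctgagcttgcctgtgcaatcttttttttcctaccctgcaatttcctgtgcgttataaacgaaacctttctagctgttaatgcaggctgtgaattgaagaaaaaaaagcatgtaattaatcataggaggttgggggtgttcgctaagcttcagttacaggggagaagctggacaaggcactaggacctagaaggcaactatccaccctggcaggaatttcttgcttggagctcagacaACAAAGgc
Dclk2: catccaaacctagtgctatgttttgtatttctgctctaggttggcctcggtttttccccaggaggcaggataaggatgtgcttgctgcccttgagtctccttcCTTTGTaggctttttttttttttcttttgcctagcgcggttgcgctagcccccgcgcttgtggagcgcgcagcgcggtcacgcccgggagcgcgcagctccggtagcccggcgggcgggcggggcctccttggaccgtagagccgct
Tubb3: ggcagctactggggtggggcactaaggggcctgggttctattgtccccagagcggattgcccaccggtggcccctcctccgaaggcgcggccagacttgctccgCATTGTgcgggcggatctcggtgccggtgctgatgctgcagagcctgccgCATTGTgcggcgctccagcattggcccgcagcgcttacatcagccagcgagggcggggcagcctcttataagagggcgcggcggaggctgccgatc
A match is only a description of these letters, and it was found in some members with overlapping libraries as well as in some without.

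The growth cone membrane proteins, which bind the inner face of the plasma membrane, were all above 0 and all overlapped between genotypes. Their log2 changes ran from 0.0037 for *Marcks* to 0.12 for *Basp1*, the highest of them at a mean of 340.0 FPKM. The value of *Basp1* ran from 0.04 without *Fmr1* KO replicate 1 to 0.22 without *Fmr1* KO replicate 2.

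All 4 kinesin heavy chains, the motors of anterograde axonal transport, were higher on average in *Fmr1* KO. *Kif5c*, a neuronal conventional kinesin, had an FPKM of 375, 394 and 408 in WT and of 439, 451 and 487 in *Fmr1* KO. Its genotypes did not overlap, with a log2 change of 0.23 (standard error 0.06, limma unadjusted p = 0.00306, adjusted p = 0.135). *Kif1a*, which carries synaptic vesicle precursors, had an FPKM of 276, 325 and 322 in WT and of 325, 364 and 381 in *Fmr1* KO. In this gene *Fmr1* KO replicate 1 lay just under WT replicate 2, and the log2 change was 0.21 (standard error 0.08, limma unadjusted p = 0.0264, adjusted p = 0.271), or 0.14 without WT replicate 1.

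*Kif5b*, the ubiquitous conventional kinesin, had an FPKM of 75.3, 73.8 and 77.2 in WT and of 81.4, 79.0 and 80.2 in *Fmr1* KO, with a log2 change of 0.09 (standard error 0.04, limma adjusted p = 0.384). *Kif5a*, the other neuronal form, had a log2 change of 0.12 with overlapping libraries. In the summed FPKM of the conventional kinesins the share of *Kif5c* was 47.7 to 48.5% in WT and 49.4 to 50.4% in *Fmr1* KO.

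Replicate 1 stood apart from the other libraries of its genotype in a way that went with transcript length. In both genotypes, replicate 1 was the highest library for 19 members, whose longest coding transcript had a median of 1803 bases. It was the lowest library for 6 members (*Map1a*, *Nefh*, *Dcx*, *Kif5a*, *Kif5c* and *Kif1a*), with a median of 7531 bases. Across 11393 loci with a known length, Spearman's correlation of length with the difference of replicate 1 from the other libraries was -0.53 in WT and -0.26 in *Fmr1* KO, and with the change from WT to *Fmr1* KO it was 0.24. These loci share their libraries and are not independent replicates, so the values are a description.

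The change from WT to *Fmr1* KO had a median of -0.04 over 2543 loci of up to 2000 bases and of 0.05 over 1734 loci of more than 6000 bases. *Map2* (6258 bases), *Kif5c* (6856), *Kif1a* (8206), *Sox11* (8311) and *Dcx* (9074) were among the long ones. With this trend removed from each library, an alternative added after seeing the data, their log2 changes were 0.22, 0.18, 0.16, 0.17 and 0.20. Those of *Tubb3*, *Stmn2* and *Gap43*, all shorter, were 0.12, 0.14 and 0.14, and those of *Nefh* and *Nefm* were -0.29 and -0.30. The direction of these genes was kept, although *Sox11* and *Sox4* then had an unadjusted p of 0.0550 and 0.0527 in limma. *Map2* and *Nefh* passed an adjusted p below 0.05, at 0.0293 and 0.0380 in limma, where 208 of the 11393 loci did so. Other long members kept less of their change. *Map1b* (11808 bases), *Map1a* (11825) and *Mapre1* (7336) were then at 0.0026, 0.06 and 0.03, beside 0.07, 0.13 and 0.08 in the main fit.

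**Figure D5:**
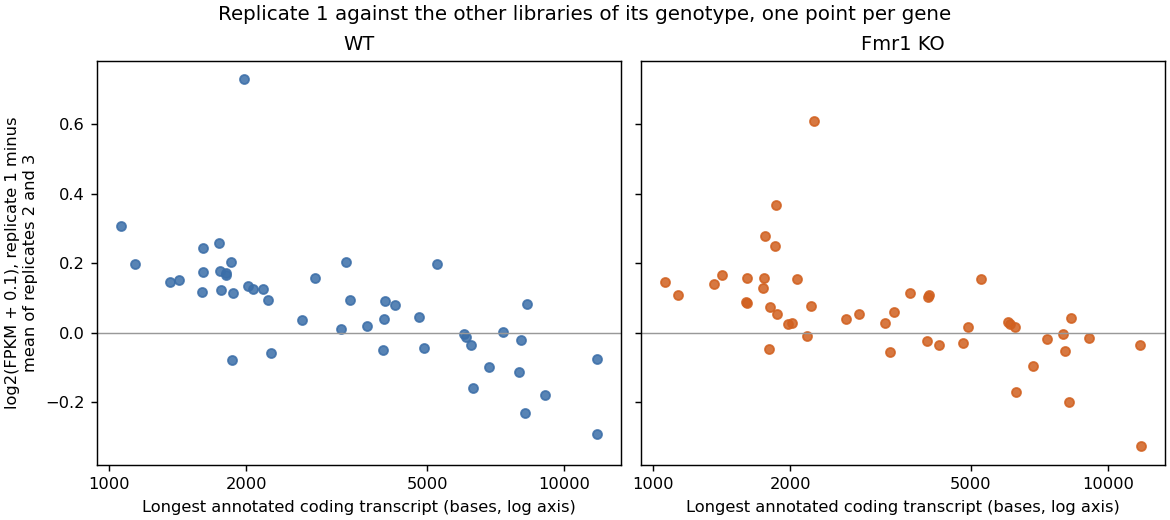
Difference of replicate 1 from the mean of replicates 2 and 3 of its genotype, as log2(FPKM + 0.1), against the longest annotated coding transcript in bases on a log axis, with 1 point per gene and 1 panel per genotype. Points of short transcripts lie mostly above 0 and points of long ones mostly below it in both panels.

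Other genes of the same pathways were described by lists that hold no member. Of 56 other microtubule and neurite genes, 55 were tested and 41 were above 0, beside 51.7% of all tested loci. Their median log2 change was 0.03, beside 0.005. Of the 55, 6 were higher and 1 was lower at an unadjusted p below 0.05, beside 6.99 and 7.77% of all tested loci. None passed an adjusted p below 0.05 in limma. *Tbce*, a tubulin folding cofactor, had an FPKM of 28.0, 26.4 and 27.0 in WT and of 32.7, 32.4 and 31.2 in *Fmr1* KO, a log2 change of 0.24 (limma adjusted p = 0.0884). The axonal scaffold genes *Ank2* and *Ank3* (ankyrins) had log2 changes of 0.20 and 0.18. Their whole list, with the spectrins, was above 0 in 6 of 6 genes. The part of the trend with transcript length in these changes was not tested. *Kif3b* (a kinesin-2 motor), *Clasp2* (a plus end protein) and *Camsap3* (a minus end protein) were the others with higher values, at 0.17, 0.12 and 0.13. *Ttll7*, an enzyme that adds glutamate to beta tubulin, was the lower one at -0.15.

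Of all tested loci, 51.7% were above 0 and 6.99% were higher at an unadjusted p below 0.05. Of 12 further immature neuron genes, 10 were tested and all 10 were above 0. Of these, 3 had an unadjusted p below 0.05, namely *Cd24a*, *Igfbpl1* and *Draxin*, with log2 changes of 0.21, 0.89 and 0.23 and an adjusted p of 0.170 or more in limma. *Igfbpl1*, known from newborn neurons, was weak, with 0.414 to 0.741 FPKM in the WT libraries and 0.967 to 1.31 FPKM in the *Fmr1* KO libraries. It averaged 1 FPKM or more only in *Fmr1* KO, so its direction was fixed by that minimum. Of 12 further mature neuron genes, 4 were above 0 and 8 were below. *Thy1*, a surface protein of mature projection neurons, had an FPKM of 130.3, 130.2 and 124 in WT and of 115, 105 and 108 in *Fmr1* KO, a log2 change of -0.23 (limma adjusted p = 0.106). *Syp*, the synaptic vesicle protein synaptophysin, was at -0.15 with separate libraries, whereas *Camk2a*, the kinase of excitatory synapses, was at 0.16 on the other side.

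Markers of other cells in the culture were measured in the same libraries. *Lyz2*, a lysozyme of myeloid cells, was the 1 marker below an adjusted p of 0.05 in limma. It averaged 1 FPKM or more only in WT, so it was tested only through the genotype where it was high. Over all tested loci, beside which the counts of each marker list stand, 51.7% were above 0. At an unadjusted p below 0.05, 6.99% of them were higher and 7.77% lower. The proliferation markers were above 0 in 7 of 7 genes, 3 of them at an unadjusted p below 0.05 (*Top2a*, *Bub1* and *Mki67*). Their summed FPKM was 46.0 to 50.7 in WT and 54.6 to 57.5 in *Fmr1* KO. The neural progenitor markers were above 0 in 4 of 6 genes and summed to 720 to 832 in WT and 921 to 961 in *Fmr1* KO, most of it from *Fabp7*, the brain lipid binding protein of radial glia, at 579.9 FPKM in WT and 743 FPKM in *Fmr1* KO. *Fabp7* had a log2 change of 0.36 and *Nes*, the progenitor filament nestin, of 0.37, whereas *Hes5*, a Notch target, was at -0.20, each with an unadjusted p below 0.05. The oligodendrocyte lineage markers were above 0 in 5 of 7 tested genes and summed to 346 to 402 in WT and 396 to 439 in *Fmr1* KO, which overlap, with *Olig2* and *Pdgfra*, both of precursors, at 0.25 and 0.29 and an unadjusted p below 0.05. None of these genes passed an adjusted p below 0.05 in limma.

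The astrocyte markers were above 0 in 3 of 7 genes and summed to 1433 to 1657 in WT and 1456 to 1609 in *Fmr1* KO. Within that list *S100b*, a calcium-binding protein of astrocytes, was at -0.36 without overlap (limma unadjusted p = 0.00122, adjusted p = 0.0957), and *Gja1*, a gap junction protein, was at -0.19 (unadjusted p = 0.0362). The microglia markers were low and summed to 6.13 to 8.74 in WT and 1.21 to 3.09 in *Fmr1* KO, with *Aif1* at 0 in every library. All 4 tested genes were below 0. They averaged 1 FPKM or more only in WT, so their direction was fixed by that minimum. *Lyz2* had a log2 change of -2.87 (limma adjusted p = 0.0359), and the complement genes *C1qa*, *C1qb* and *C1qc* were at -2.03, -2.33 and -1.83 with an unadjusted p below 0.05. Of the fibroblast and mural list, 4 genes were tested and 1 was above 0, and it summed to 47.7 to 52.3 in WT and 39.1 to 47.1 in *Fmr1* KO, with *Dcn*, the matrix protein decorin, at -0.27 (unadjusted p = 0.0166). Of the endothelial list, 1 gene was tested, at a log2 change of -0.0032, and *Cldn5* was at 0 in every library. The part of progenitor, dividing or glial cells in the values of *Dcx*, *Sox11*, *Sox4*, *Stmn1* and the other immature genes was not tested.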

How the data were processed

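Total RNA (integrity number above 8 per the study's methods) from 3 WT and 3 *Fmr1* KO cultures at day 14 in vitro was sequenced. According to the methods and the submitters' processing notes, the authors clipped and trimmed the reads, used TopHat2 to map them to GRCm38, and made and compared gene models with Cufflinks and Cuffdiff. Their versions, the annotation, strand use and library scaling are not stated in those sources. The deposited table (48100 rows, 462 without a symbol) gives FPKM per library, which were used, and group FPKM, fold changes, p-values and q-values of the authors, which were not used. FPKM keep no counts, so the depth is unknown and the spread between 3 libraries sets the precision.

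Loci that averaged 1 FPKM or more in WT or in *Fmr1* KO were fitted once as log2(FPKM + 0.1) with limma 3.58.1 in R 4.3.3 (genotype as the only term, mean-variance trend, Benjamini-Hochberg adjustment over 13195 loci). A log2 change on this scale understates that of weakly expressed genes. The script was tested on simulated data. Sums, shares and scores were computed with pandas 2.3.3 in Python 3.11.15. Sequences are from GENCODE vM21 and RefSeq, and lengths are those of the longest coding transcript. Some sequences are not reported here.

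The members, the other lists and the tests were chosen with earlier results of these data known. Values in every library are given for the 9 immature and mature genes, *Map1b*, *Fmr1*, and the highest and lowest member. They are also given for members with an unadjusted p below 0.05 or with libraries that do not overlap. Other members are given by role, with examples (highest, largest rise and largest fall). Genes of other lists are named where an unadjusted p was below 0.05. Exceptions chosen after values were seen were *Rbfox3*, *Snap25*, *Ap1b1*, *Stk16*, *Aif1*, *Cldn5* and some members. As alternatives, the pseudocount was set to 1 or 0.01, the FPKM minimum was dropped or set to 5, and other fits used libraries centred on their medians, the trend with locus span or transcript length removed (lowess, span 0.3), no mean-variance trend, 5 libraries with any 1 left out, or the replicate number as a block.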

Additional observations from a re-analysis of the deposited data

How the results depend on the processing

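The number of members below an adjusted p of 0.05 was 0, and became 1 (*Map2*) with an FPKM minimum of 5 and with the replicate block and 2 (*Map2* and *Nefh*) with the trend with transcript length removed, an alternative chosen after seeing the data; it was 0 in all other alternatives. The number of all loci called, 35, was 54 with the minimum of 5, 21 without the mean-variance trend, 15 without an FPKM minimum, 65 with the block, 208 with the transcript length trend removed and 15 to 18 with a library left out. Members at an unadjusted p below 0.05 numbered 14 (10 higher and 4 lower), between 10 and 18 with a library left out (6 to 14 higher and 3 to 6 lower) and 21 with the block. Such a p was found for 14.8% of all tested loci in the main fit and for 18.7% with the block. That share was 10.6% without *Fmr1* KO replicate 3, where 10 members had such a p. It was 14.3% without WT replicate 1, where 18 members did. Between genotypes, the deviations of the libraries numbered 1 had a correlation of 0.24, beside -0.12 to -0.15 between number 1 and another number. Numbers 2 and 3 gave 0.06 and 0.08 with the same number, beside 0.07 and 0.08 with each other. Whether the libraries were paired is not stated, so the block shows only a shared number. The median log2 change of the members stayed between 0.04 and 0.08 with a library left out, and the immature minus mature difference between 0.20 and 0.24. Of the 46 tested members, 33 kept their direction in every alternative and 13 did not. The log2 changes of these 13 in the main fit ran from -0.08 for *Tuba1b* to 0.04 for *Dclk1*. With the locus span trend removed *Map1s* was 0.0095, *Ina* -0.013 and *Stmn3* 0.0053; with the transcript length trend removed *Stmn3* was 0.027, *Tubg1* 0.0043, *Dclk1* -0.014 and *Marcks* -0.0011; with centred libraries *Marcks* was -8.5e-05. With a library left out, the log2 change ran from -0.14 to 0.0031 for *Tuba1b*, -0.025 to 0.084 for *Tubb2a*, -0.016 to 0.052 for *Tubb4b*, -0.089 to 0.027 for *Tubg1*, -0.27 to 0.095 for *Tubg2*, -0.054 to 0.062 for *Map1s*, -0.012 to 0.0498 for *Mapre2*, -0.0061 to 0.064 for *Mapre3*, -0.014 to 0.022 for *Ina*, -0.18 to 0.013 for *Prph*, -0.0503 to 0.052 for *Stmn3* and -0.0400 to 0.034 for *Marcks*. The cause of these moves was not tested.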
